A study of Homo sapiens with 10 samples.

Results

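Among the methylated regions called in HEK293T cells, 3837 carried a peak in every list of the series except the one of the WT cells. Peaks on chromosomes 1 to 22 and X of the EV, K-KD, WT, Knon-rep-KO and Krep-KO lists were pooled, and peaks that overlapped by 1 bp or more were merged into 144156 regions. The regions described here held at least 1 peak of EV, K-KD, Knon-rep-KO and Krep-KO and none of WT, which is 2.66% of all merged regions. HEK293T is a human embryonic kidney cell line, and methylated DNA was captured by MeDIP-seq, in which sonicated genomic DNA is precipitated with an antibody to 5-methylcytosine and sequenced.

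The cells compared were labelled WT, K rep KO, EV, K non-rep KO and KD (a KCNQ1OT1_K knockdown, with a list named K-KD), and the labels say no more about the vector, the knockdown agent, the deleted sequence or the number of clones. Each condition had 1 antibody library and 1 library without antibody, so no difference between conditions has a replicate check and no test is given. Peak names inside both knockout lists carry prefixes other than those of the lists. Exchanging these lists would leave the same 3837 regions, since the rule treats them alike.

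The regions were chosen by the peak calls of all 5 lists. Shares of regions with or without a WT peak are therefore descriptions, and their 95% Wilson intervals cover counting error only, since neighbouring regions are not independent. Cytosine methylation in mammals lies mostly at CpG, a cytosine followed by a guanine. In most cells the bodies of transcribed genes are methylated, CpG-rich promoters are largely free of methylation, and methylation of a promoter usually goes with a silent gene. KCNQ1OT1 is a long antisense RNA made from the paternal copy of the imprinted KCNQ1 domain on the short arm of chromosome 11.

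The WT list was the shortest, and the size of this group moved with that. It held 30732 peaks on these chromosomes, against 53396 in Knon-rep-KO, 53919 in K-KD, 59098 in Krep-KO and 87815 in EV. Of the 15330 regions with a peak in the 4 other lists, 25.0% (24.4 to 25.7) had no WT peak. The corresponding share was 16.4% for a missing K-KD peak, 9.77% for Knon-rep-KO, 7.24% for Krep-KO and 4.54% for EV. WT was thus the list most often missing. When every list was cut to the length of the WT list by −log10 p, 733 of 7392 regions lacked WT (9.92%), below K-KD (20.2%) and EV (12.7%) and near Knon-rep-KO (9.59%) and Krep-KO (8.98%). With peaks of −log10 q of 5 or more, 15.03% lacked WT and 25.3% lacked K-KD. Here and below, this threshold also drops WT peaks under it, so a region with a weaker WT peak counts as lacking WT. With all WT peaks kept, and only the 4 other lists held to the threshold, 6.08% lacked WT. The contrasts by place below are not given in that form. The number of regions therefore moved with list length and with the peak threshold.

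**Figure D1:**
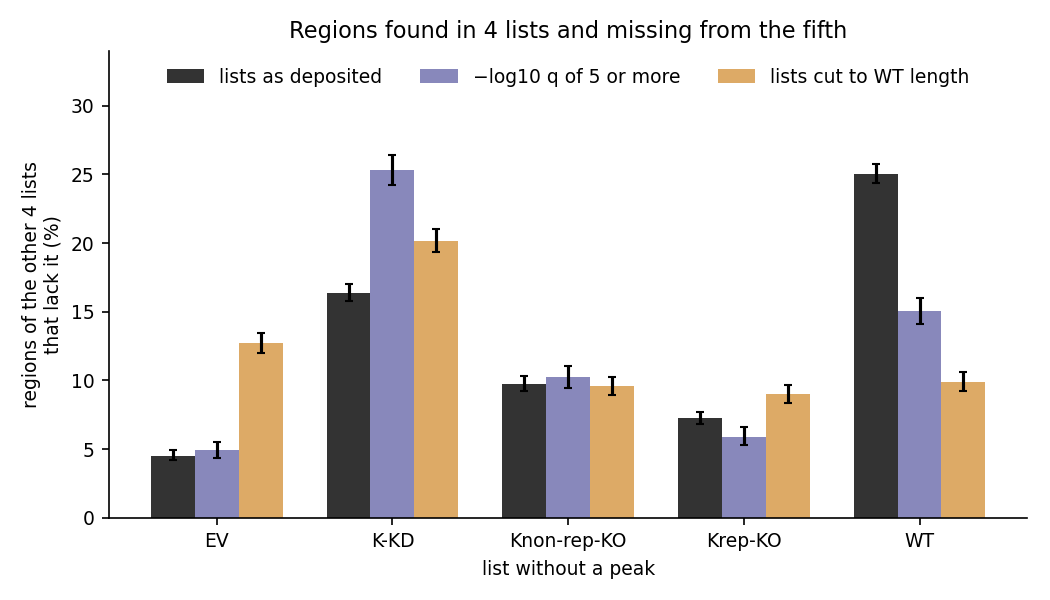
Percent of the regions found in 4 lists that lack another list, for each list (x axis), with the lists as deposited, with peaks of −log10 q of 5 or more, and with each list cut to the WT length. Bars start at 0 and lines are 95% Wilson intervals; the WT bar falls from 25.0% to 9.92% when lists have equal length.

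Of the places compared, the share of regions without WT was highest at start sites. Within 1 kb of a start site it was 58.6% (53.7 to 63.3; 236 of 403). A RefSeq promoter window covers 250 bases before to 50 bases after a start site. Of the 331 regions of the 4 other lists that overlapped such a window, 180 had no WT peak (54.4%, 49.0 to 59.7), against 24.4% (23.7 to 25.1) of regions off the windows. Where another list was the missing one, the promoter share was 13.7% for K-KD, 8.49% for Knon-rep-KO, 7.36% for Krep-KO and 3.21% for EV, each close to that list's share over all places. With lists cut to equal length the contrast was 29.9% (22.6 to 38.4; 38 of 127) on promoter windows and 9.57% off them. With peaks of −log10 q of 5 or more it was 17.6% (10.6 to 27.8; 13 of 74) and 14.99%, and these intervals overlap.

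The 180 regions lay over 210 of 34961 windows (0.601%), which belonged to 188 genes. These windows held a median of 17 CpG in 300 bases, against 15 in the windows over regions found in all lists and 14 in all windows. In 142 of the 210 (67.6%, 61.0 to 73.6) there were 15 or more CpG, compared with 54.5% (47.4 to 61.4) for regions found in all lists and 49.0% of all windows. The median GC content was 61.7% over these regions, 62.0% over regions in all lists and 58.7% in all windows. GC content was thus alike in both sets of regions. Their CpG counts differed more, but the intervals of the shares with 15 or more CpG overlap. Some regions lay over several windows, so the windows are not independent and these intervals are too narrow.

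By the value of the lowest of their 4 fold enrichments, the windows of ZBTB20-AS1, LOC105376805, NFIB-AS1, LOC124903754, LHX9, LOC105372718, RUVBL1-AS1, LINC02084, TARID and TCF21 came first. Fold enrichment is the authors' ratio of the pileup at the summit to the local background. ZBTB20-AS1, LOC105376805 and NFIB-AS1 start within other annotated genes. Of the first 6, the windows of the other 3 are printed to show the DNA under such regions. AKAP12 and CIART, chosen after their values were seen, are added as protein-coding genes with a start site outside any other gene. Each run gives the 250 bases before the start site 5′ to 3′ on the gene's strand, with CpG in capitals, from RefSeq on GRCh38.p14.
LOC124903754, chr16:88090606-88090855, minus strand: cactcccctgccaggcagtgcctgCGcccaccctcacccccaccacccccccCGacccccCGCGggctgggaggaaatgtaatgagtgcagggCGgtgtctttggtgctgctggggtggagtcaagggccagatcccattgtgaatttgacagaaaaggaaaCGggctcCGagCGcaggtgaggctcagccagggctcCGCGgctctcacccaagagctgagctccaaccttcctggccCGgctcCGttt
LHX9, chr1:197912214-197912463, plus strand: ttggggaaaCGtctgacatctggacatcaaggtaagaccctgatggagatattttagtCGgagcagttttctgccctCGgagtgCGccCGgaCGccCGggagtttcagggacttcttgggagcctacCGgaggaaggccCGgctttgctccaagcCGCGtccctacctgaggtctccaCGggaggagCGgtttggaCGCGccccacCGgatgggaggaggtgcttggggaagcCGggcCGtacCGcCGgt
LOC105372718, chr20:63027757-63028006, minus strand: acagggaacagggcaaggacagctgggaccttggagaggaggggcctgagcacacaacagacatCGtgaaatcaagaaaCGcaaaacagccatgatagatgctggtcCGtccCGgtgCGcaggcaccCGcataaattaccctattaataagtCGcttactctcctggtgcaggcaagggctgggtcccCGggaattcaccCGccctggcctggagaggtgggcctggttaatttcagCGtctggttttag
AKAP12, chr6:151239717-151239966, plus strand: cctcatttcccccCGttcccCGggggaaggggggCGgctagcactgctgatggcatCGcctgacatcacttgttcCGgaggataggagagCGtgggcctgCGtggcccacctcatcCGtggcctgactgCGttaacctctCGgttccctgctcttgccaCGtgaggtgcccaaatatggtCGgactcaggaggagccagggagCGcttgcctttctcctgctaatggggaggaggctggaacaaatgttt
CIART, chr1:150282304-150282553, plus strand: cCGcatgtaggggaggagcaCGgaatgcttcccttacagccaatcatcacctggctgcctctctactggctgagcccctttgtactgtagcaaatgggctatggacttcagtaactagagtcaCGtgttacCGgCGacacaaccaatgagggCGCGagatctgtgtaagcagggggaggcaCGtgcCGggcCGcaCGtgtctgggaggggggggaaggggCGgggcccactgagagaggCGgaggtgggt
The runs hold 12, 20, 10, 13 and 13 CpG, in the order printed. The printed bases are not always where the signal was highest. From the start site, the summits in EV, K-KD, Knon-rep-KO and Krep-KO lay at 745, 226, 845 and −563 bp at LOC124903754. At CIART they lay at 289, −321, −430 and −938 bp. All of these fall outside the printed runs. At LOC105372718 they lay at −51, 1504, 262 and 132 bp, so only the EV summit was inside.

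LHX9 encodes a LIM homeobox factor of gonad and brain development. Its region, chr1:197910011-197912642, had folds of 7.40 in EV, 6.27 in K-KD, 4.95 in Knon-rep-KO and 5.25 in Krep-KO, and the nearest WT peak was 6328 bp away. The 4 summits lay at −563 to −2292 bp from the start site, so the highest signal was upstream of the printed bases. At AKAP12, which encodes a scaffold of protein kinases A and C, the region chr6:151239345-151239995 had folds of 8.29, 6.81, 4.60 and 4.72 in the same order. Its summits lay at −136 to −209 bp from the start, inside the printed run. A second AKAP12 start, at position 151341706, lay under another region of the group, with folds of 4.35, 5.95, 4.82 and 5.26.

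CIART, a repressor of the circadian clock, had folds of 5.31, 4.58, 4.81 and 5.57 in the region chr1:150281460-150282932, with the nearest WT peak 15190 bp away. The same region covers the promoter window of LOC124904414, a protein-coding gene on the minus strand, so it does not belong to CIART alone. TCF21, a basic helix-loop-helix factor of mesoderm, and TARID, the RNA antisense to it, share the region chr6:133889104-133890328. The folds there were 6.32 in EV, 4.81 in K-KD, 6.31 in Knon-rep-KO and 6.33 in Krep-KO, and no WT peak lay within 224339 bp. The summits in the 4 lists fell 153 to 521 bp after the TCF21 start, within the gene. WT1, the Wilms tumour gene and no relation to the WT condition, was met in the region chr11:32430461-32431233, with folds of 5.99, 5.14, 4.45 and 4.46. That window is an internal start of WT1, and WT1 too was chosen after its values were seen.

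Gene bodies were the second kind of place. The centres of 2321 of the 3837 regions (60.5%, 58.9 to 62.0) lay in a protein-coding gene, against 40.3% (39.4 to 41.2) of the 11493 regions found in all lists and 55.9% of all merged regions. This was a feature of regions without WT in general. Regions called in 1, 2 or 3 other lists and not in WT had their centres in genes in 58.6, 60.4 and 60.7% of cases, and regions with a WT peak and 0 to 3 other lists in 43.7 to 45.1%. Some regions in all lists were crowded where there are no protein-coding genes. A 1 Mb window of chromosome 18 without such a gene held 76 of them beside 3 of the group, and another of chromosome 6 held 16 beside 16. The part of such windows in the gene contrast was not tested. Distance to start sites did change with the number of lists. The share with a centre within 1 kb of a start site was 3.58, 4.49, 5.81 and 6.15% for regions without WT in 1, 2, 3 and 4 lists, and 1.45 to 1.81% for regions with a WT peak.

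**Figure D2:**
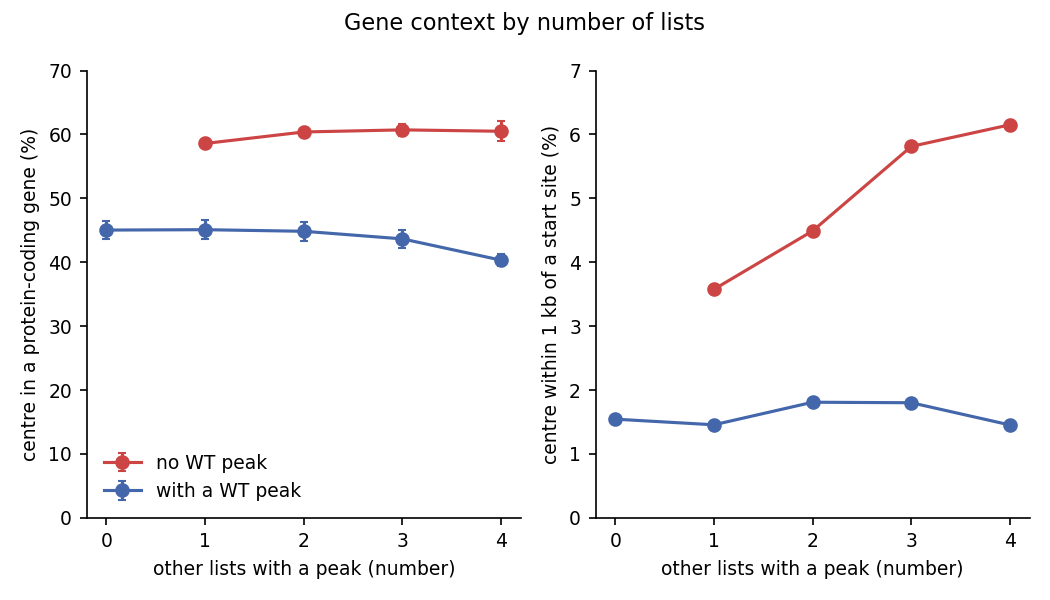
Percent of merged regions with a centre in a protein-coding gene (left, 95% Wilson intervals) and within 1 kb of a start site (right), by the number of other lists with a peak, for regions with and without a WT peak. At every number of lists the regions without WT (58.6 to 60.7% in genes) lie above those with WT (40.3 to 45.1%).

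Read the other way, 33.4% (32.3 to 34.5) of the regions of the 4 other lists in genes lacked WT, and 18.1% (17.3 to 18.9) of those outside genes. The contrast was 12.8% (11.7 to 14.1) and 7.75% (6.99 to 8.60) with lists cut to equal length, and 17.6 and 13.3% with −log10 q of 5 or more. A higher share in genes was also seen where K-KD was missing (18.4 against 14.96%) or Krep-KO (8.53 against 6.35%), but not Knon-rep-KO (9.76 against 9.77%) or EV (3.66 against 5.12%). At −log10 q of 5 or more the K-KD contrast was 28.2 against 23.3%, of like size to that of WT, so a higher share in genes was not particular to WT. Within genes longer than 5000 bp, each gene was divided into 5 equal parts from its start, and 22.7% of these regions lay in the last part and 19.4% in the first. For regions in all lists these shares were 15.2 and 23.1%, and for all merged regions 22.3 and 19.6%. The position of the group along genes thus resembled that of all merged regions. Exons and introns were not told apart, since no such annotation was used.

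Chromosome ends were the third. Of the regions within 5 Mb of an outermost gene or peak, 37.7% (35.9 to 39.4) lacked WT, against 22.1% (21.3 to 22.8) farther in. Gene and end both counted. In genes near an end the share was 42.8% (40.6 to 45.0), in genes farther in 29.8%, outside genes near an end 28.0% and outside genes farther in 16.7%. With lists of equal length these were 15.6 (13.2 to 18.4), 11.9, 10.4 and 7.38%. With −log10 q of 5 or more, 18.9% near an end and 14.2% farther in lacked WT. For the other missing lists, as deposited, the shares near an end and farther in were 16.04 and 16.5% for K-KD, 11.1 and 9.51% for Knon-rep-KO, 8.47 and 7.00% for Krep-KO and 2.92 and 4.83% for EV. In all, 28.8% of the group lay within 5 Mb of an end, compared with 15.9% of regions in all lists and 19.3% of all regions.

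**Figure D3:**
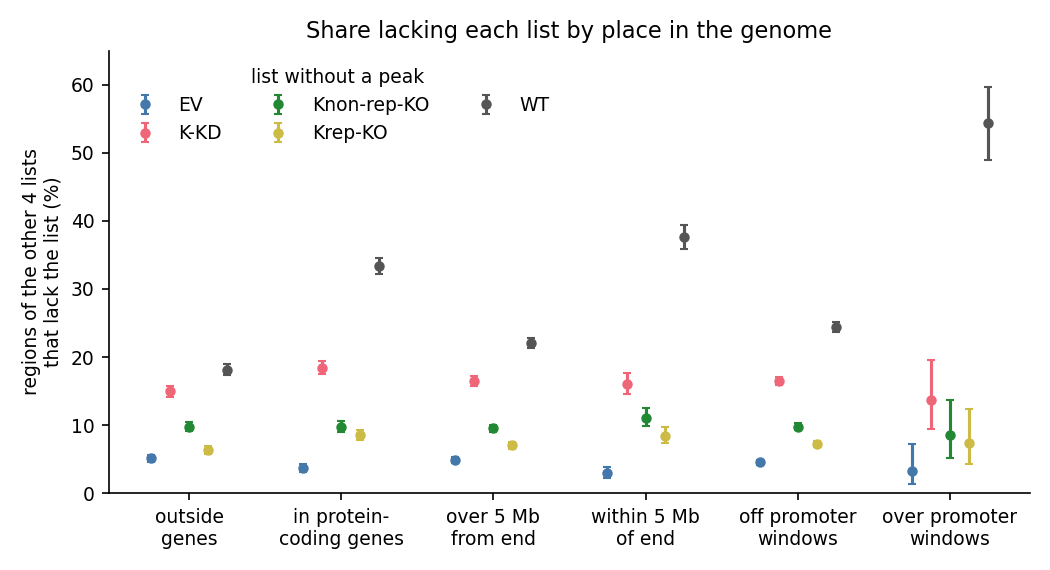
Percent of regions of 4 lists that lack the remaining one (y axis), by place in the genome and by missing list (colours), with 95% Wilson intervals. The WT points rise from 24.4% off promoter windows to 54.4% over them, while the other lists stay between 3.21 and 16.4% at both.

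By chromosome, the share without WT was 35.2% on chromosome 6 (229 of 650; 31.7 to 39.0), 32.1% on 22, 29.9% on 16 and 29.2% on 19. It was 4.19% on chromosome 18 (20 of 477; 2.73 to 6.39), 13.9% on 13 and 16.1% on 11 (73 of 453; 13.02 to 19.8). On chromosome 18, most regions in all lists lay outside genes, in the windows from 16 to 21 Mb, where 0 to 3 regions per 1 Mb belonged to the group. Over the whole of chromosome 18, WT had 1038 peaks, EV 1346, K-KD 893, Knon-rep-KO 1059 and Krep-KO 1118. The WT list was thus not the shortest on this chromosome, and the part of this in its low share was not tested. Inside genes the share on chromosome 18 was 12.2% (9 of 74; 6.53 to 21.5), still below the 33.4% of all regions in genes. On chromosome 6 it was 36.1% (30.8 to 41.9) inside genes, close to that value, and 34.5% (29.8 to 39.5) outside them, where the share over all chromosomes was 18.1%. The high share of chromosome 6 thus lay outside genes. On chromosome 11 the Krep-KO list, which the rule requires, was short as well, with 1321 peaks against 3568 in EV, 2226 in K-KD, 2146 in Knon-rep-KO and 1291 in WT. Regions there that lacked Krep-KO made up 12.2%, above its 7.24% over the genome, and the part of this in the low number on chromosome 11 was not tested.

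The group was unevenly spread along the chromosomes. Its regions were found in 1190 of 2906 windows of 1 Mb, and the 236 windows with 5 or more held 2181 of them (56.8%). The window from 81 to 82 Mb of chromosome 17 held 40, beside 31 regions in all lists, and contains BAIAP2, BAHCC1 and SLC38A10. The window before it held 27 and contains RPTOR and TBC1D16. Windows at 132 Mb of chromosome 12 and 3 Mb of chromosome 19 held 33 and 32. On chromosome 6, the window with most was 59 to 60 Mb, which holds no protein-coding gene, with 16 beside 16 in all lists. After it came 150 to 151 Mb, with PLEKHG1 and MTHFD1L (10 beside 1), 168 to 169 Mb, with SMOC2 (10 beside 7), and the 1 Mb after it, with THBS2 and WDR27 (10 beside 8). The windows from 1 to 2 Mb, with the forkhead genes FOXQ1, FOXF2 and FOXC1, and from 26 to 27 Mb, with histone genes, held 9 each, beside 3 and 8. In contrast, the window from 27 to 28 Mb of chromosome 20 held none beside 73 regions in all lists.

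A gene was taken as its RefSeq body with 2 kb on both sides. Of 19839 protein-coding genes, 2171 held a region of the group (10.9%), 467 held 2 or more and 23 held 5 or more. A region in all lists was held by 3899 (19.65%). In 836 of the 2171 (38.5%) there was no WT peak at all. The share of all protein-coding genes without a WT peak is not given, so this count is not read as a trait of the group. Genes with a region had a median length of 39780 bp, against 24460 bp for all. The genes with most regions are given with their number of peaks in each list. These genes were chosen for regions without WT, and over all protein-coding genes WT had 14165 peaks against 30365 to 53601, so their low WT counts follow from the choice and the list length.

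RPTOR, which encodes the scaffold of the mTORC1 kinase complex, had 14 regions, more than any other gene. EV had 103 peaks in it, K-KD 83, Knon-rep-KO 62, Krep-KO 68 and WT 18. The 14 regions ran from chr17:80582448-80582927 to chr17:80963942-80966636, near the whole length of the gene. Their folds were 2.67 to 8.61 in EV, 3.70 to 6.07 in K-KD, 2.76 to 6.89 in Knon-rep-KO and 3.301 to 6.51 in Krep-KO. Their heights were ordinary for the group, whose medians per list were 4.31 to 4.74. The lowest distance from one of them to a WT peak was 343 bp, at chr17:80824690-80826208.

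MAD1L1, a spindle checkpoint gene, had 11 regions; EV had 131 peaks, K-KD 86, Knon-rep-KO 70, Krep-KO 89 and WT 17. Of these, chr7:1937562-1938300 was one of the highest of the whole group, with folds of 9.97, 17.4, 11.5 and 7.78 and summits within 34 bp. CELSR1, a cadherin of planar cell polarity, had 9 regions and 59, 32, 43, 43 and 8 peaks in the order EV, K-KD, Knon-rep-KO, Krep-KO and WT. ZFPM1, a cofactor of GATA factors, had 7 regions and 26, 23, 18, 18 and 2 peaks. PRKAR1B, a regulatory subunit of protein kinase A, also had 7, with 13 WT peaks against 33 to 50. BAIAP2, an actin regulator, had 5 regions, 1 WT peak against 17 to 37, and no region in all lists.

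CFAP46, GNG7, GSE1, INPP5A, PRKAG2, PTPRN2 and TBC1D16 had 6 regions each, and ANKRD11 and BAHCC1 had 5. WT peaks in these ranged from 2 in TBC1D16, a Rab GTPase-activating protein, to 22 in GNG7, a G protein subunit, and PTPRN2, a phosphatase-like protein of secretory vesicles. GNG7 and PTPRN2 also held 11 and 14 regions in all lists, so their WT methylation calls were many.

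Among genes with no WT peak, INTS1 and WNT3A had 4 regions each. INTS1 encodes a subunit of the Integrator complex, which processes small nuclear RNAs, and EV had 20 peaks in it, K-KD 14, Knon-rep-KO 11 and Krep-KO 11. Its regions lay at least 15476 bp from a WT peak. WNT3A, a secreted signalling ligand, held 9, 9, 9 and 7 peaks, with folds in its 4 regions of 3.05 to 7.20 over the 4 lists. CLASRP, EVX2, HOXA3, ICAM5, KIF14, LRCOL1, MAPK8IP2 and MTG1 had 3 each. EVX2, a homeobox gene beside the HOXD cluster, held 4, 4, 3 and 3 peaks in a gene of 6491 bp. In MTG1, a GTPase of mitochondrial ribosome assembly, chr10:133402460-133403634 reached 9.58, 8.11, 9.44 and 7.47.

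**Figure D4:**
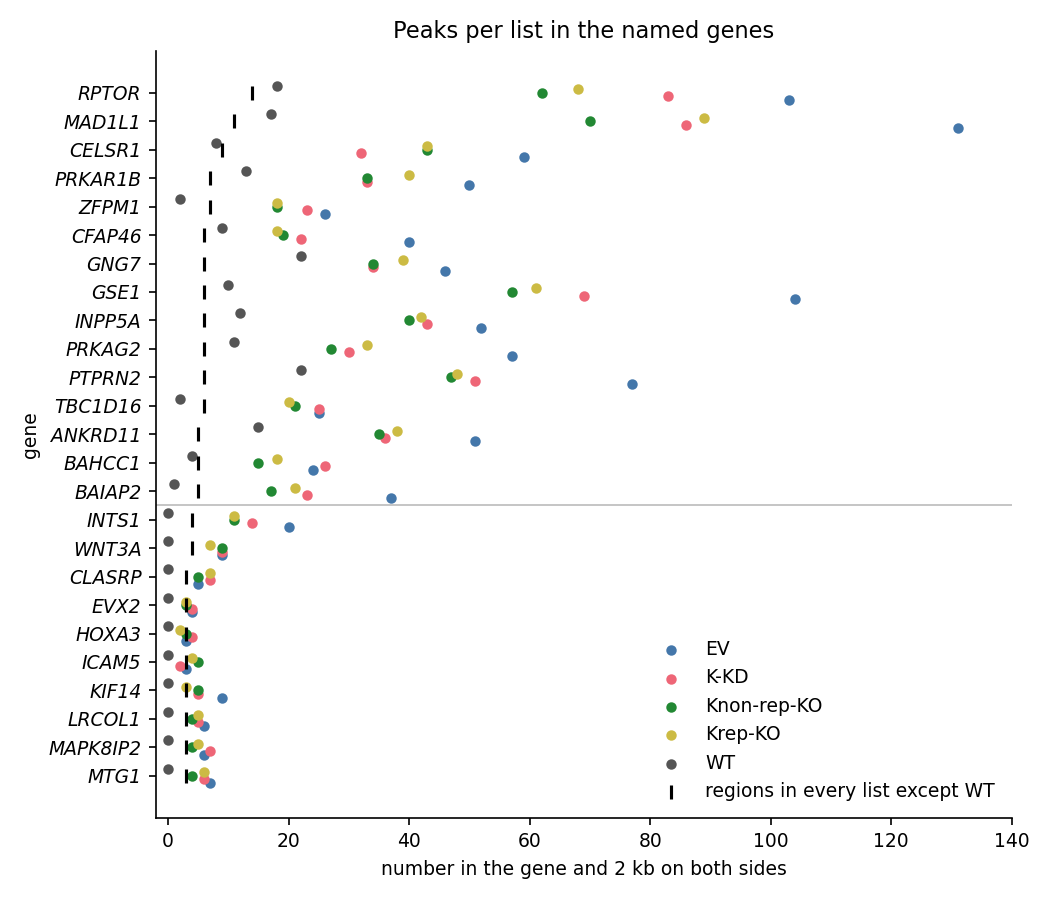
Number of peaks per list (coloured points) and of regions in every list except WT (black ticks) in each named gene with 2 kb on both sides; genes above the grey line were chosen for most regions, those below for most regions and no WT peak. WT counts run from 22 in GNG7 and PTPRN2 to 0 below the line; low WT counts follow from the choice of genes in both parts.

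HOX genes, the clustered homeobox genes that set position along the body axis, had the plainest pattern of the 18 gene lists. In 14 of 39 HOX genes (35.9%, 22.7 to 51.6) there was a region, against 10.9% of all protein-coding genes. The median number per gene was 0, as for all genes. All 13 separate regions of the 4 other lists in HOX genes lacked WT, where 33.0% of those in protein-coding genes did. EV had 48 peaks in HOX genes, K-KD 38, Knon-rep-KO 32, Krep-KO 36 and WT 5. With lists of equal length they held 18, 23, 20, 16 and 5, and 2 regions of the 4 other lists were left, both without WT. WT thus had fewer HOX peaks than the other lists also at equal length. Over all protein-coding genes at equal length WT was lowest too, with 14165 peaks against 16542 to 18061.

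All 4 HOX clusters were touched. On chromosome 17, HOXB13 had folds of 5.53 in EV, 6.55 in K-KD, 4.29 in Knon-rep-KO and 7.60 in Krep-KO at chr17:48724259-48725935. On chromosome 7, chr7:27154422-27155404, in HOXA7 and within 2 kb of HOXA3, had 5.65, 4.62, 5.44 and 4.87. On chromosome 2, chr2:176083091-176086417, shared by HOXD13 and EVX2, had 8.22, 3.602, 4.45 and 5.22, and it covers the EVX2 start site. These were moderate peaks. On chromosome 12, HOXC10 at chr12:53983272-53984447 had 7.41, 3.81, 6.10 and 4.25. None of the HOX regions passed −log10 q of 5 in all 4 lists.

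The nuclear receptor list (RXR and RAR receptors of retinoids and their coregulators) came next, with 126 peaks of EV, 82 of K-KD, 71 of Knon-rep-KO, 76 of Krep-KO and 10 of WT. With lists of equal length it held 27, 40, 38, 31 and 10. Of its 11 genes 3 had a region, and 8 of the 10 separate regions of the 4 other lists lacked WT. RXRA, with 3 regions, encodes the shared partner of many nuclear receptors, and its region chr9:134429067-134430336 had folds of 4.74, 3.62, 6.43 and 3.62. The class II histone deacetylases held 95, 44, 43, 49 and 6 peaks, and 22, 18, 22, 18 and 6 at equal length. HDAC4 with 3 regions and HDAC10 with 1 made up its count of 2 of 6 genes, with 4 of 7 regions lacking WT. In these lists too WT held fewer peaks than the others at either length. This order was not particular to them. At equal length WT was also lowest in collagen genes (36 against 60 to 86) and potassium channel genes (44 against 70 to 80). It was not lowest in the chromosome 19 zinc finger genes given below. The regions without WT did not remain at equal length. The nuclear receptor list then had 0 regions of the 4 other lists, and the deacetylases had 2, of which 0 lacked WT.

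Further gene families were mixed. Of 53 clustered protocadherin genes, 36 had a region, but the genes are nested and share 6 separate regions, of 8 in the 4 other lists; here the median per gene was 1. Of 15 hedgehog pathway genes GLI2 and SHH had a region, with 3 of 7 lacking WT. At SHH, the secreted ligand, chr7:155805790-155807261 had 7.59, 7.60, 4.29 and 4.29. Of 44 collagen genes 9 had a region, and 11 of 22 lacked WT. Of 95 potassium channel genes other than KCNQ1, 11 had a region and 12 of 25 lacked WT.

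Genes of chromatin and DNA methylation gave mixed shares. Of the H3K36 methyltransferases, ASH1L, NSD1 and NSD2 had 2 regions each, and 6 of 10 lacked WT. Of 18 genes of H3K9 methylation and HP1, KDM4B with 4 regions, EHMT1 with 2, KDM4C and ATRX had one, and 8 of 31 lacked WT. Of 18 DNA methylation and demethylation enzymes, MBD3, TET1, UHRF1 and UHRF2 had a region each, and 4 of 17 lacked WT. The last 2 shares lie below the 33.0% of protein-coding genes. Outside 11p15.5, 6 of 45 imprinted genes had a region and 8 of 23 lacked WT, and WDR27 held 4 of these.

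Other lists had few. Of the chromosome 19 zinc finger genes, many of which repress repeated sequence, 12 of 246 had a region, and 16 of 87 lacked WT (18.4%). At equal length WT held 151 peaks in them, against 107 to 149 in the other lists, and no region of the 4 other lists lacked WT. This was the reverse of the order in HOX genes. Olfactory receptors (2 of 389 genes; 2 of 9 regions), ribosomal proteins (4 of 81; 5 of 21), housekeeping genes (1 of 26; 1 of 9), calcium channel subunits (2 of 26; 3 of 18) and senescence and secretory genes (2 of 26; 3 of 6) completed the lists. Around KCNQ1OT1, in 23 listed genes of 11p15.5, 1 had a region, CARS1, at chr11:3012952-3013337 with 5.19, 3.92, 3.99 and 4.46.

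KCNQ1, KCNQ1OT1 and CDKN1C had no region of the group. EV had 45 peaks in KCNQ1, K-KD 14, Knon-rep-KO 11, Krep-KO 9 and WT 3, with no region shared by all 5 lists. KCNQ1OT1, which lies within KCNQ1, held 2 in EV and 1 in WT, and CDKN1C, which restrains cell division and lies nearby, held none in any list. As deposited, WT thus had the fewest peaks in KCNQ1, but its list is also the shortest. At equal length the listed 11p15.5 genes held 27 peaks of EV, 28 of K-KD, 21 of Knon-rep-KO, 3 of Krep-KO and 9 of WT. WT was then not the lowest. No place in KCNQ1 was called in all 4 other lists.

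In the 10 tallest regions, which were 546 to 2012 bp wide, the 4 summits lay within 18 to 137 bp of each other. In CFAP97D2, chr13:114198577-114200588 had folds of 14.0 in EV, 11.1 in K-KD, 14.8 in Knon-rep-KO and 16.1 in Krep-KO, with the nearest WT peak 70508 bp away. In MIGA1, a regulator of mitochondrial fusion, chr1:77870254-77871494 had 9.23, 9.17, 9.39 and 10.6, with summits within 18 bp. The region chr7:157470335-157470940, in the non-coding gene LOC101927914, had 17.5, 12.0, 14.2 and 10.3. In CNOT4, an E3 ligase of the CCR4-NOT complex, chr7:135504325-135504924 had 10.3, 8.13, 9.90 and 8.92. All 4 regions stood at 8.13 or more in every list that called them.

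The folds of some others differed more between lists. In LRPAP1, a chaperone of lipoprotein receptors, chr4:3508727-3509898 had a fold of 29.5 in EV and 6.90 to 9.5 in the other 3, and a WT peak lay 1750 bp away. The region chr5:105144672-105145471, in no gene, had 19.7, 7.21, 17.8 and 12.9. In CDK5RAP2, a centrosome gene, the folds were close, and chr9:120495112-120495673 had 6.73 to 7.70 and a WT peak 340 bp away. The region chr11:129563485-129564030, in no gene, had 11.1, 6.85, 7.92 and 8.92. The 5 regions with the widest stretch under all 4 lists (1622 to 1974 bp) lay mostly in no gene, with the nearest protein-coding gene 806159 bp or more away in 4 of them, and in SI, an intestinal disaccharidase, in the fifth.

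Such heights were rare in the group. The median fold was 4.74 in EV, 4.31 in K-KD, 4.46 in Knon-rep-KO and 4.46 in Krep-KO, and regions in all lists had 5.98, 4.71, 5.75 and 5.82. Within its own list, the median region of the group stood at a fold percentile of 62.7 in EV, 59.0 in K-KD, 55.7 in Knon-rep-KO and 54.2 in Krep-KO, while regions in all lists stood at 69.9 to 85.0. Group regions were thus a little above the middle of each list. A −log10 q of 5 or more in all 4 lists was reached by 337 (8.78%), against 44.9% of regions in all lists. Peak calls chose the regions, so these values describe the choice and support nothing else.

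**Figure D5:**
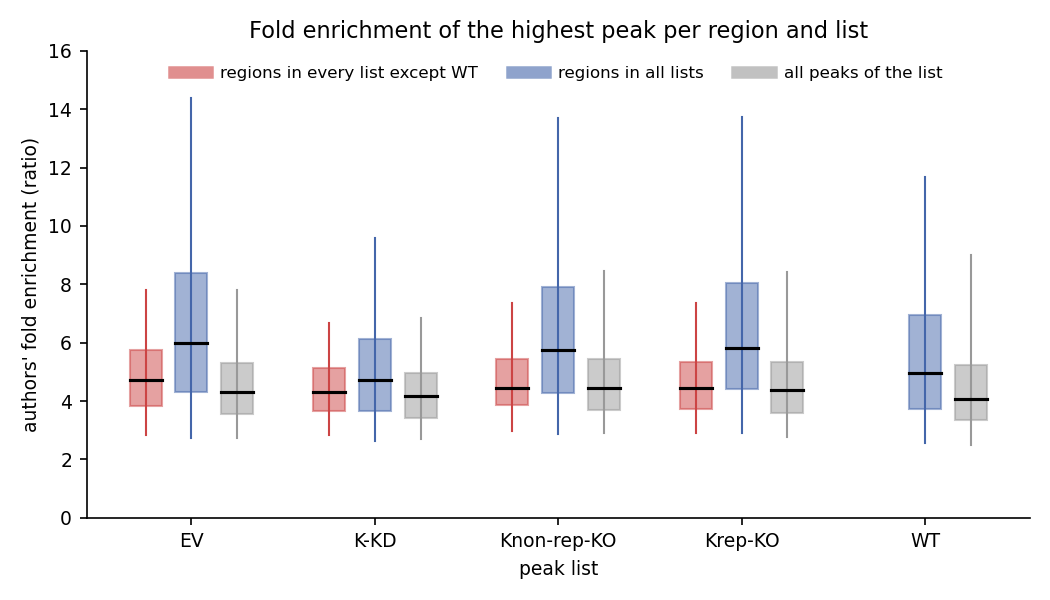
Authors' fold enrichment (ratio) per list for regions in every list except WT, regions in all lists (highest peak per region), and all peaks of the list; boxes span the quartiles, black lines the median, thin lines the 5th to 95th percentile. Medians of the group (4.31 to 4.74) lie below those of regions in all lists in each of the 4 lists.

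Fold values of different lists agreed little from region to region. Over the 3837 regions, Spearman's rho of fold between 2 lists was 0.11 to 0.18 across regions, and over the 11493 regions in all lists it was 0.39 to 0.54 for the same pairs. The regions share a library within a list and span a narrow range of fold, and no p is given. The list with the highest within-list percentile was EV in 1188 regions, K-KD in 1038, Krep-KO in 821 and Knon-rep-KO in 790. EV thus stood highest most often, in 31.0% of regions, and lowest least often, in 21.2%. A percentile ranks a region among all peaks of its own list, and EV is the longest list. The order is therefore not read as stronger signal in EV, and the part of list length in it was not tested.

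Depth was read from the lists, which hold no read totals. The pileup, the number of fragments over a summit, was solved as a whole number from fold and −log10 p. The solution gave back the listed −log10 p within 0.001 for 99.8 to 99.9% of peaks. The median pileup in the group was 15 in EV, 12 in K-KD, 11 in Knon-rep-KO and 12 in Krep-KO, against 24, 18, 18 and 21 for regions in all lists. The most common lowest background was 1.29 in WT, within the 1.02 to 1.43 of the other lists, and the smallest peak called there had 6 fragments in WT and 5 or 6 in the others. The smallest callable peak at that background was thus much the same in WT, which is no measure of how well methylated DNA was captured. Other values differed. The median pileup over the whole list was 14 in WT and 10 to 12 in the others, and the median peak width was 748 bp against 505 to 522 bp. The part of depth or capture in the missing WT calls was not tested. Pileups of 10 or less made up 10.3% of group peaks in EV, 30.8% in K-KD, 48.4% in Knon-rep-KO and 27.7% in Krep-KO. Over each whole list the shares were higher, at 30.5, 40.2, 55.1 and 39.1%, and 28.1% in WT. A missing WT peak is no measure of unmethylated DNA, since the lists give no WT signal where no peak was called.

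In shape, group regions were small, with a median width of 1164 bp (quartiles 815 and 1611) against 1749 bp. Peaks of the 4 lists shared at least 1 base in 3120 (81.3%), against 94.6% of regions in all lists, and the median shared stretch was 306 bp. In 778 (20.3%) all 4 summits lay within 200 bp, against 26.1%. In the regions with no shared base, the lists met through a chain of overlapping peaks.

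The median distance to the nearest WT peak was 10500 bp, and 276 regions (7.19%) had one within 1000 bp. For regions without WT in 1, 2 and 3 lists the medians were 19730, 14780 and 12300 bp. For regions that lacked only EV, K-KD, Knon-rep-KO or Krep-KO, the medians to the missing list were 3724, 6701, 4696 and 4965 bp, with 19.4, 10.3, 13.8 and 17.6% within 1000 bp. The missing list was thus farther away for WT, whose list has the fewest peaks. The nearest to the edge of the rule was chr16:67695760-67696775, 5 bp from a WT peak, with folds of 5.22, 4.88, 5.94 and 5.66. Just outside it, chr7:1454677-1456454 met WT by 9 bp, with 4.90, 4.06, 4.45 and 2.78 in the other lists and 3.50 in WT.

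Of 1562 miRNA hairpins, 7 (0.448%) lay under a region of the group, and 18 under regions in all lists. MIR424 and MIR503, neighbours of 1 cluster on the X chromosome whose products repress cell cycle genes, lay under chrX:134544507-134546979. It had folds of 8.25 in EV, 3.42 in K-KD, 6.17 in Knon-rep-KO and 3.34 in Krep-KO. The mature 5p forms are printed with the seed (bases 2 to 8) in capitals, from RefSeq.
hsa-miR-424-5p, minus strand: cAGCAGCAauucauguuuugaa
hsa-miR-503-5p, minus strand: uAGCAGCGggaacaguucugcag
The other hairpins were MIR1184-2, MIR3185 (under the HOXB13 region), MIR4747, MIR637 and MIR6511A3.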

How the data were processed

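MeDIP-seq peak lists of 5 conditions were analysed, 1 list per condition. The tools named in the submitters' processing notes are MACS2, Bowtie2 and deepTools, with the build GRCh38. Not given in the sources used here are their versions and settings, the use of the input libraries and any pooling. The deposited lists give, per peak, the fold enrichment (a ratio), −log10 p, −log10 q and a score, all the authors' values; they were used only to describe, rank and filter peaks within a list. One more deposited list matched no sample label and was not used (1 list). Peaks off chromosomes 1 to 22 and X (3.56 to 5.83% of a list) were left out. Merging, overlaps and distances were computed in Python 3.11.15 with pandas 2.3.3, NumPy 2.4.6 and SciPy 1.17.1, and tested on simulated data. Figures were drawn with Matplotlib 3.10.9. Genes and promoter windows came from RefSeq tables (GRCh38.p14); 544 genes of alternate sequences were left out of 59098, and 79.7% of protein-coding genes had a window. Named regions were the 10 with the highest lowest fold and the 5 with the widest stretch under all 4 lists. Named genes were the 15 with most regions, the 10 with most and no WT peak, 10 by promoter window, up to 4 per gene list, and KCNQ1, KCNQ1OT1 and CDKN1C. Members and lists were chosen with earlier results of these data known. Alternatives changed the peak threshold, list length, merging distance, gene flank, summit span and distance to WT.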

Additional observations from a re-analysis of the deposited data

How the results depend on the processing

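The number of regions in every list except WT, 3837 as reported, was 833 with peaks of −log10 q of 5 or more, 1846 with fold of 4 or more, 733 where all lists were cut to the WT length, and 337 where the 4 other lists (not WT) were held to −log10 q of 5 or more. The share of regions of the 4 other lists without WT was 15.03, 29.9, 9.92 and 6.08% in that order, and 23.2% where a WT peak within 1000 bp counted as present. Of the regions found, 337 of 833, 918 of 1846 and 733 of 733 overlapped one of the 3837. With a list left out of the rule, chosen after seeing the data, the number was 6890 without K-KD, 7293 without Knon-rep-KO and 6175 without Krep-KO. The share was 28.0% without EV, 33.4% without K-KD, 36.4% without Knon-rep-KO and 33.3% without Krep-KO. Fewer peaks (or fewer lists to satisfy) enter these settings by construction; what else moved them was not tested. Protein-coding genes with a region numbered 431 at −log10 q of 5 or more. Summits lay within 100 bp in 8.97% and within 500 bp in 53.0%, and a WT peak within 200 bp in 0.652% and within 10000 bp in 48.7%. Merging peaks 200 bp apart, asking for a base under all 4 lists, leaving out EV, leaving out chromosomes 11 and X, and other gene flanks kept the counts within 1.5 times. No paired analysis was possible because each condition has 1 list. Lists of few fragments per peak limit what a missing call shows.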
